A study of Mus musculus with 18 samples.

Results

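The balance between matrix metalloproteinases (MMPs) and their tissue inhibitors (TIMPs) was followed in cultured mouse mammary fibroblasts through 10 genes. They are the gelatinases Mmp2 and Mmp9, the membrane-type enzyme Mmp14, the secreted enzymes Mmp11, Mmp19 and Mmp28, and the inhibitors Timp1, Timp2, Timp3 and Timp4. The genes were taken from a named list of 6 of the MMPs outside the chromosome 9 cluster, with all 4 TIMPs, and no threshold on their levels was used. They are 10 of the 55486 genes in the count table. A total of 9 passed the filter on low counts, as 9 of the 14273 genes tested, and Timp4 did not.

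The cells were normal fibroblasts (NFs) from mammary glands of adult female mice on the FVB/n background, sorted as cells without EpCAM, CD49f, CD31 and CD45 and divided into CD26- and CD26+ NFs. CD26, the product of Dpp4, is a peptidase on the cell surface. The study describes 2 kinds of donor, mTmG reporter mice and mice with floxed alleles that lacked WapCre, and which of them gave the present libraries is not given in the sources used here. Glands of several mice were pooled for a sort, and the cells were expanded on collagen before use. After 7 days in control conditioned medium, CD26- NFs gave 3 libraries (replicates 1 to 3) and CD26+ NFs gave 3 (replicates 10 to 12). After 7 days in tumor conditioned medium (CM), CD26- NFs gave 6 libraries (replicates 4 to 9) and CD26+ NFs gave 6 (replicates 13 to 18). The CM came from 6 tumor cell lines of WEPtn mice, a genetic mouse model of invasive lobular carcinoma. The CM of a line was put on 1 CD26- and 1 CD26+ culture, so the spread within a CM group includes differences between lines. Nothing in the sources says that control libraries came from separate mice or sorts, so the p-values measure the spread between these libraries only, which may be technical.

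MMPs are zinc-dependent enzymes that cut collagens and other matrix proteins, and most are made as inactive proenzymes. Gelatinases degrade denatured collagen and basement membrane collagen, and MMP14 sits in the cell membrane, where it cuts fibrillar collagen and activates pro-MMP2. TIMPs bind the active site of MMPs, but TIMP2 in low amounts also bridges pro-MMP2 to MMP14 and so takes part in its activation. The study asked how tumor CM changes both fibroblast types. For these genes the question is how the transcripts of enzymes and inhibitors differ between cell types and media. The assay measures transcripts and not enzyme activity.

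Libraries held 9725723 to 14585349 counts. Levels are given in CPM after TMM scaling of library sizes. The value after ± is the SD over libraries for levels, shares and ratios, and the standard error (SE) for log2 changes. FDR stands for the adjusted p (Benjamini-Hochberg) of edgeR's quasi-likelihood test over all 14273 genes, and a gene is said to rise, fall or differ at an FDR under 0.05. Fibroblast markers were abundant, with 8 of 8 markers over 1 CPM in every group. Their summed level was 13543 to 15673 CPM in CD26- control libraries, 9196 to 19210 in CD26- CM libraries, 42347 to 52386 in CD26+ control libraries and 25983 to 42338 in CD26+ CM libraries. All 8 epithelial markers were also over 1 CPM in every group. They summed to 4169 to 4615 CPM in CD26- control, 2639 to 4313 in CD26- CM, 678.5 to 1226 in CD26+ control and 620.5 to 1496 in CD26+ CM libraries. The 8 immune markers summed to between 18.0 and 33.8 CPM in any library, most of it Csf1r, with group means from 17.5 to 21.7 CPM. The pan-leukocyte gene Ptprc had 15 counts in all libraries together and the macrophage gene Adgre1 had 10, while S100a8 had 540 and Cd68 had 446. Dpp4, which encodes the sorting marker, was at most 0.171 CPM in any control library of either cell type and reached 0.881 CPM in CD26- CM and 7.80 CPM in CD26+ CM libraries, so the label CD26+ could not be checked on transcripts in control medium. In bulk libraries, fewer cells that express a gene and less RNA per cell cannot be told apart.

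Compared per kilobase of merged exons (GENCODE annotation of GRCm38), Timp1 was the most abundant member in all 4 groups, with mean levels from 1740 to 2488 CPM per kb. Timp3, Timp2 and Mmp2 followed in an order that differed between groups. In CD26- control libraries Timp3 stood at 188 ± 7.84, Timp2 at 135 ± 3.46 and Mmp2 at 95.9 ± 2.44 CPM per kb (SD, n = 3). In CD26+ control libraries Mmp2 came second at 384 ± 39.0, above Timp3 at 242 ± 9.57 and Timp2 at 171 ± 5.92 CPM per kb (SD, n = 3). Mmp14, Mmp9, Mmp19 and Mmp11 were lower in each group, and Mmp28 was the lowest of the tested members, between 0.240 and 1.73 CPM per kb. Timp1 has 888 bases of merged exons and Timp3 has 8144, so the raw CPM of Timp3 overstates its level against Timp1.

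Promoter sequences in RefSeq (GRCm38.p6) matched 7 of the 10 members. The unmatched members are Mmp2, Mmp9 and Mmp19. The 250 bases before the start are shown for Mmp14, the only member that fell with CM in both cell types by the test below, for Timp1, the most abundant member per length, and for Timp4, which was near 0. Capitals mark the GC box, the letters GGGCGG on either strand.
Mmp14, chr14:54431348-54431597, plus strand: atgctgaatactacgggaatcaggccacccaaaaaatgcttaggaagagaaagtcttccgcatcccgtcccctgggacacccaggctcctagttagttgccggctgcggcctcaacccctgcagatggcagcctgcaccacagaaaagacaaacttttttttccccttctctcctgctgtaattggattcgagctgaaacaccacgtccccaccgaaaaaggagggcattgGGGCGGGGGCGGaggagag
Timp1, chrX:20869916-20870165, plus strand: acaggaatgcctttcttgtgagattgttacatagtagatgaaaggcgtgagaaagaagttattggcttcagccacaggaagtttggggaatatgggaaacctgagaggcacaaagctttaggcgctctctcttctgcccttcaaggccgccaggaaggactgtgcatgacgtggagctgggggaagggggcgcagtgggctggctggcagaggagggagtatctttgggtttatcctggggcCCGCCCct
Timp4, chr6:115252206-115252455, minus strand: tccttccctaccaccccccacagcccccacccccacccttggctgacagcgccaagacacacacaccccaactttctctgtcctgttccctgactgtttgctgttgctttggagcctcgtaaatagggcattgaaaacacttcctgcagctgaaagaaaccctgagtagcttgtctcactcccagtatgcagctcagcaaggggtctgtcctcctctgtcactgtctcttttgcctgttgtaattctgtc
The Mmp14 window held 2 adjacent GC boxes that begin 19 and 13 bases before the start. Timp1 held 1, on the other strand, beginning 8 bases before it, and Timp4 held none. Of 32851 promoter windows of this length, 32.7% held a GC box. The CCAAT box (CCAAT, either strand) was found in 33.8% of all windows, at 69 and 23 bases before the start of Mmp14, where the latter shares a base with a GC box, and at 190 bases before that of Timp1. Neither the AP-1 letters TGANTCA nor the TATA letters TATAAA, held by 6.75% and 12.4% of all windows, occurred in any of the 7 matched members. These are matches of letters and were not tied to binding or to a level.

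Mmp2, the gelatinase A gene (ENSMUSG00000031740, chr8:92827291-92853420), was higher in CD26+ than in CD26- NFs in both media. Its level was 333, 318 and 319 CPM in the 3 CD26- control libraries. In CD26- CM libraries it ran from 414 to 515 CPM with a median of 463. CD26+ control libraries had 1195, 1443 and 1243 CPM, and CD26+ CM libraries ran from 956.5 to 1332 with a median of 1155. Every CD26+ library was above every CD26- library, and within CD26- NFs the control and CM libraries did not overlap. In control medium the CD26+ level was 4.00-fold that of CD26- NFs (log2 difference 2.00 ± 0.11 SE, edgeR FDR = 1.74e-09), the 9th smallest p of all genes tested. CM raised Mmp2 by 0.52 ± 0.10 (log2) in CD26- NFs (edgeR FDR = 0.00239). In CD26+ NFs the change was -0.17 ± 0.09 and did not pass (edgeR FDR = 0.179, 95% interval -0.37 to 0.02). The CM effects differed between cell types by -0.69 ± 0.13 (edgeR FDR = 0.00642), so the gap between CD26+ and CD26- NFs was smaller in CM, at 1.31 ± 0.08 (edgeR FDR = 7.78e-10). The order was CD26- control, CD26- CM, then both CD26+ groups, which did not differ beyond their spread.

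Mmp9, the gelatinase B gene (ENSMUSG00000017737, chr2:164940780-164955850), ran against Mmp2 in control medium. The CD26- control libraries had 300.4, 270.3 and 273 CPM, and the CD26+ control libraries had 78.9, 45.04 and 44.3 CPM. CM libraries ran from 103 to 204 CPM (median 131) in CD26- NFs and from 39.1 to 180 CPM (median 142) in CD26+ NFs. CD26- control libraries stood above all others, whereas the CD26+ groups overlapped because replicate 18 (line 13-MCB-138) lay below all 3 controls. Mmp9 was lower in CD26+ than in CD26- NFs in control medium (log2 difference -2.33 ± 0.39, edgeR FDR = 9.52e-05). Beside this difference, the summed epithelial markers were also lower in CD26+ control libraries, with ranges that did not overlap those of CD26- control libraries, and their part in the result was not tested. CM lowered Mmp9 in CD26- NFs (log2 change -1.01 ± 0.31, edgeR FDR = 0.0380) and raised it in CD26+ NFs (1.14 ± 0.35, edgeR FDR = 0.0203). Beside the fall in CD26- NFs, all 8 epithelial markers had a lower mean with CM in these cells, their summed median went from 4531 to 3336 CPM with ranges that overlapped, and their part was not tested. The effects differed by 2.15 ± 0.47 (edgeR FDR = 0.0121). In CM the difference between cell types did not pass, at -0.18 ± 0.27 (edgeR FDR = 0.580, 95% interval -0.74 to 0.38). The paper states otherwise, that MMP9 was significantly higher in CD26+ than in CD26- NFs in tumor CM. It cites a plot of changes against control medium. The fall in CD26- NFs was lost when any of control replicates 1, 2 and 3 or CM replicates 4, 5, 6, 8 and 9 was left out (edgeR FDR from 0.0511 to 0.120, log2 change -1.03 to -0.93). The rise in CD26+ NFs was lost without control replicate 11 or 12 (edgeR FDR 0.101 and 0.102) and in a fit of those groups alone (1.13, edgeR FDR = 0.0757), and its estimate was 1.32 without replicate 18. The difference between the effects was lost without control replicate 11 (2.00, edgeR FDR = 0.0569).

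**Figure D1:**
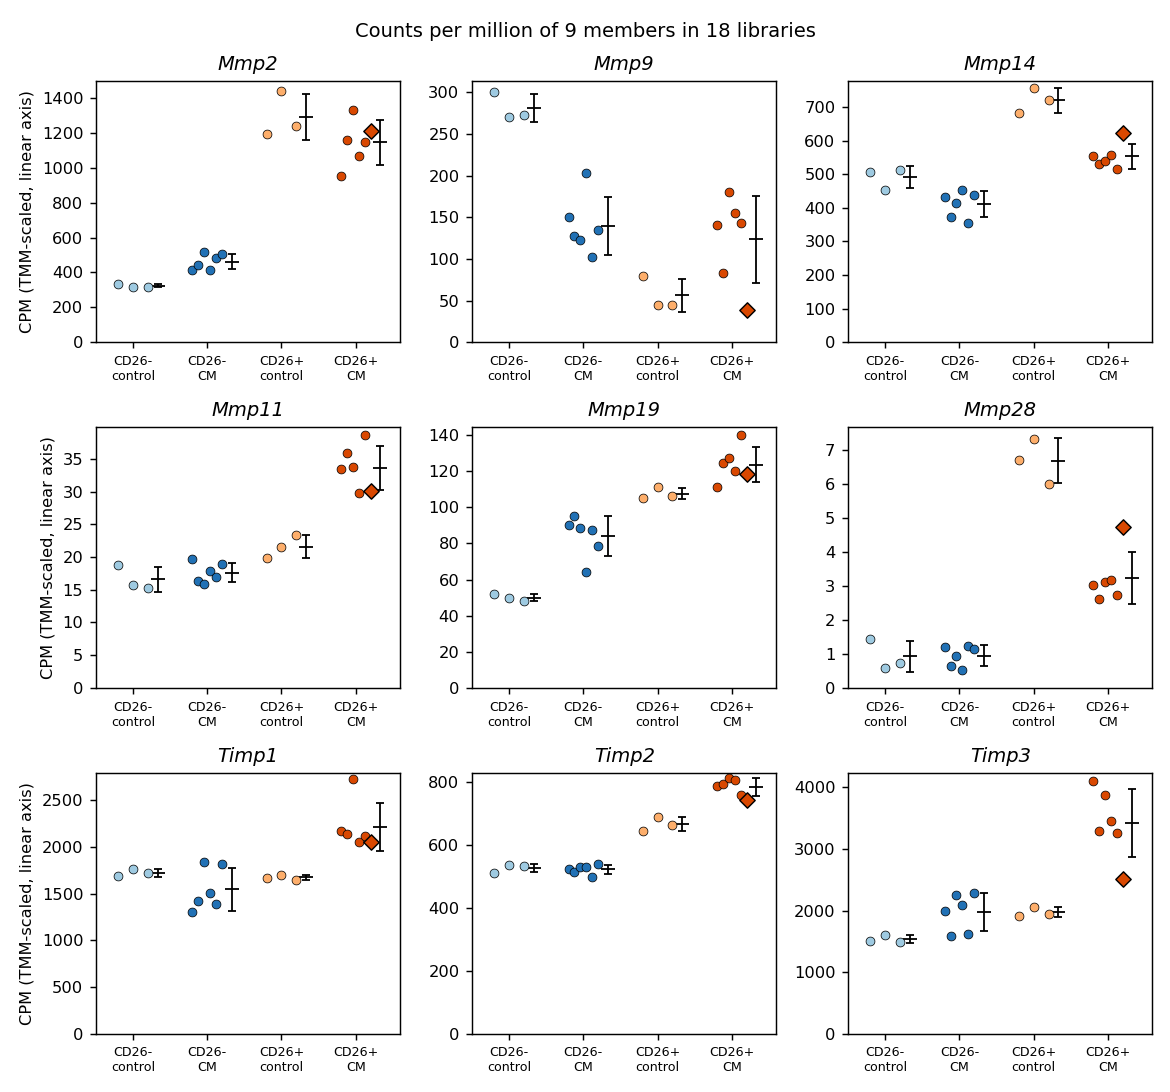
Level of 9 members in each library in TMM-scaled CPM (y axis, linear, from 0) for CD26- control (n = 3), CD26- CM (n = 6), CD26+ control (n = 3) and CD26+ CM (n = 6). Each point is 1 library, the diamond is replicate 18 and the black bar is the mean ± SD; Mmp2 separates the cell types in both media, while Mmp9 is highest in CD26- control libraries.

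Mmp14, which encodes the membrane-anchored collagenase MT1-MMP (ENSMUSG00000000957, chr14:54431612-54445364), was lower in CM in both cell types. CD26- control libraries had 506, 455 and 514 CPM against 356 to 454 (median 424) with CM. CD26+ control libraries had 684, 758 and 720 CPM against 515 to 623 (median 548) with CM. All CM libraries were below the controls of their own cell type, although in CD26- NFs the lowest control and the highest CM library were less than 1 CPM apart. The fall was 0.26 ± 0.08 in CD26- NFs (log2 change -0.26, edgeR FDR = 0.0310) and larger in value in CD26+ NFs, at -0.38 ± 0.08 (edgeR FDR = 0.00128). The effects were not shown to differ (-0.12 ± 0.11, edgeR FDR = 0.521, 95% interval -0.35 to 0.10). The call in CD26- NFs was lost without control replicate 1 or 3, without CM replicate 5 or 8 (edgeR FDR from 0.0587 to 0.147) and in a fit of those groups alone (edgeR FDR = 0.0593). CD26+ NFs had more Mmp14 in control medium (0.55 ± 0.09, edgeR FDR = 5.66e-05) and in CM (0.43 ± 0.06, edgeR FDR = 1.47e-05), a 1.47-fold and a 1.35-fold difference.

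Mmp11, stromelysin-3 (ENSMUSG00000000901, chr10:75923222-75936496), rose with CM in CD26+ NFs. There the controls had 19.9, 21.6 and 23.3 CPM and the CM libraries 29.8 to 38.7 (median 33.6), with no overlap (0.64 ± 0.09, edgeR FDR = 0.000103). CD26- NFs had 18.8, 15.7 and 15.2 CPM in control medium and 16.0 to 19.7 (median 17.3) with CM, and these groups overlapped (0.09 ± 0.10, edgeR FDR = 0.579). The effects differed by 0.55 ± 0.14 (edgeR FDR = 0.0222), a call lost without control replicate 1, 10 or 11 (edgeR FDR from 0.0677 to 0.0774). Between cell types the level was higher in CD26+ NFs by 0.39 ± 0.11 in control medium (edgeR FDR = 0.00765) and by 0.93 ± 0.08 in CM (edgeR FDR = 2.29e-08).

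Mmp19 (ENSMUSG00000025355, chr10:128790910-128800824), a secreted enzyme that acts on basement membrane proteins, had the opposite dependence on cell type. CM raised it in CD26- NFs from 51.9, 49.8 and 48.4 CPM to between 64.0 and 94.97 (median 88.0), a rise of 0.75 ± 0.10 (edgeR FDR = 0.000214). In CD26+ NFs the controls had 105, 111 and 106 CPM and the CM libraries 111 to 140.0 (median 122). All of those CM libraries were above the controls, but the change of 0.20 ± 0.09 did not pass (edgeR FDR = 0.114) unless CD26- CM replicate 7 was left out (edgeR FDR = 0.0272). The effects differed by -0.55 ± 0.13 (edgeR FDR = 0.0195), a call lost without control replicate 3 or 11 (edgeR FDR = 0.0597 and 0.0599). CD26+ NFs had more Mmp19 than CD26- NFs, by 1.10 ± 0.11 in control medium (edgeR FDR = 3.69e-07) and by 0.56 ± 0.08 in CM (edgeR FDR = 6.00e-06). Tmem198b overlaps Mmp19 on the opposite strand and held 3929 counts over all libraries, 18.1% of the 21682 of Mmp19. The strand setting of the counting is not given in the sources used here.

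Mmp28, epilysin (ENSMUSG00000020682, chr11:83440768-83463071), was rare, with 7 to 99 counts per library. CD26- libraries had 1.45, 0.598 and 0.744 CPM in control medium and 0.525 to 1.24 (median 1.05) with CM, and the change did not pass (0.05 ± 0.33, edgeR FDR = 0.937). In CD26+ NFs it fell from 6.72, 7.33 and 6.01 CPM to between 2.63 and 4.74 (median 3.08), by 1.05 on the log2 scale (log2 change -1.05 ± 0.21, edgeR FDR = 0.00139). The difference between the effects, -1.10 ± 0.39, did not pass (edgeR FDR = 0.0880). It passed without replicate 1, 7 or 18 (edgeR FDR from 0.0243 to 0.0492) and with the CM line as a block (edgeR FDR = 0.0463). CD26+ NFs had 7.31-fold the level of CD26- NFs in control medium (2.87 ± 0.30, edgeR FDR = 6.82e-07) and 3.41-fold in CM (1.77 ± 0.22, edgeR FDR = 2.74e-06). It was the largest fold difference between cell types among the members.

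Timp1, a secreted inhibitor of most MMPs (ENSMUSG00000001131, chrX:20870166-20874735), did not pass the test between cell types in control medium and rose with CM in CD26+ NFs. CD26- control libraries had 1684, 1762 and 1718 CPM and CD26+ control libraries 1673, 1698 and 1650 CPM, which overlapped (-0.04 ± 0.12, edgeR FDR = 0.810, 95% interval -0.30 to 0.22). With CM, CD26+ NFs had 2049 to 2725 CPM (median 2126), above all their controls (0.40 ± 0.11, edgeR FDR = 0.0105). CD26- NFs with CM spread from 1300 to 1836 CPM (median 1467), on both sides of their controls (-0.16 ± 0.11, edgeR FDR = 0.344). The effects differed by 0.56 ± 0.15 (edgeR FDR = 0.0330). That call was lost without any of control replicates 1, 2, 3, 10, 11 and 12 or CM replicates 5 and 8 (edgeR FDR from 0.0520 to 0.0890, difference 0.53 to 0.56). In CM the CD26+ level was higher by 0.52 ± 0.09 (edgeR FDR = 6.88e-05).

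Timp2, the inhibitor that also docks pro-MMP2 on MMP14 (ENSMUSG00000017466, chr11:118301069-118355740), had the narrowest spread of the tested members in both CM groups, where the highest library was 1.08-fold (CD26-) and 1.09-fold (CD26+) the lowest. CD26- libraries had 510.4, 535 and 533 CPM in control medium and 499 to 539 (median 524) with CM (-0.01 ± 0.04, edgeR FDR = 0.884, 95% interval -0.10 to 0.08). In CD26+ NFs it rose from 643, 689 and 663 CPM to between 743 and 812 (median 789), a 1.18-fold rise (0.24 ± 0.04, edgeR FDR = 0.000780). The effects differed by 0.25 ± 0.06 (edgeR FDR = 0.0231), a call lost without control replicate 2, 3, 10, 11 or 12 (edgeR FDR from 0.0585 to 0.0790) and without the filter on low counts (edgeR FDR = 0.0652). CD26+ NFs had more Timp2 in control medium (0.34 ± 0.05, edgeR FDR = 2.61e-05) and in CM (0.59 ± 0.04, edgeR FDR = 9.90e-10).

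Timp3, the inhibitor that stays bound to the matrix and also blocks ADAM sheddases (ENSMUSG00000020044, chr10:86300372-86349506), showed the largest rise of an inhibitor. In CD26+ NFs it went from 1916, 2061 and 1939 CPM to between 2514 and 4108 (median 3376), with no overlap (0.79 ± 0.14, edgeR FDR = 0.000426). The lowest of these CM libraries was replicate 18. CD26- NFs had 1498, 1607 and 1495 CPM in control medium and 1591 to 2290 (median 2045) with CM. The latter change of 0.36 ± 0.14 did not pass (edgeR FDR = 0.0785), and passed without replicate 5 (edgeR FDR = 0.0499) or replicate 18 (edgeR FDR = 0.0335). The effects were not shown to differ (0.43 ± 0.19, edgeR FDR = 0.162, 95% interval 0.03 to 0.83), but passed without replicate 18 (0.50, edgeR FDR = 0.0421). Between cell types Timp3 was higher in CD26+ NFs in CM (0.79 ± 0.11, edgeR FDR = 7.69e-06). In control medium the difference of 0.36 ± 0.15 did not pass (edgeR FDR = 0.0594). It passed without replicate 5, 13 or 18 (edgeR FDR from 0.0227 to 0.0476), with upper-quartile scaling (edgeR FDR = 0.0455) and in a fit of those groups alone (edgeR FDR = 5.68e-05).

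Timp4 (ENSMUSG00000030317, chr6:115241892-115252205), an inhibitor known mainly from heart and other muscle, was near the limit of detection. It had 10 counts in all 18 libraries, with 0 in each of the 9 CD26- libraries, 3 in the CD26+ control group and 7 in the CD26+ CM group. A count of 0 allows up to 3 counts, which is 0.203 to 0.290 CPM in these 9 libraries, and covers counting error only. No fold change is given. Timp1, Timp3 and Timp4 lie within the bounds of Syn1, Syn3 and Syn2 on the opposite strand, and Syn1, Syn3 and Syn2 held 1230, 85 and 116 counts over all libraries.

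With CM in CD26- NFs, 4 of 9 tested members changed, 2 up (Mmp2 and Mmp19) and 2 down (Mmp9 and Mmp14), where 15.2% of all genes tested changed, 7.88% up and 7.28% down. The 4 were all MMPs, as none of the 3 tested TIMPs passed edgeR's test, with 1 at an unadjusted p under 0.05. In CD26+ NFs 7 of 9 changed, 5 up (Mmp9, Mmp11, Timp1, Timp2 and Timp3) and 2 down (Mmp14 and Mmp28), where 28.6% of all genes changed, 15.2% up and 13.4% down. The median log2 fold change of the members was 0.05 in CD26- NFs and 0.24 in CD26+ NFs, and over all genes tested it was 0.01 and -0.00396. The CM effect differed between cell types for 6 of 9, positive for 4 (Mmp9, Mmp11, Timp1 and Timp2) and negative for 2 (Mmp2 and Mmp19), against 7.53% of all genes, 4.53% positive and 3.01% negative. That count was 1 without replicate 11 and 3 without replicate 3 or 10. Pericyte markers summed to 41.0 to 46.2 CPM in CD26+ control and 47.6 to 77.3 CPM in CD26+ CM libraries, without overlap, and to 66.9 to 78.2 and 34.2 to 67.2 CPM in CD26- NFs. Immune markers went from 18.0 to 19.8 CPM in CD26+ control to 20.9 to 28.8 CPM in CD26+ CM libraries, also without overlap. Of the pericyte genes, Cspg4 (20.3 to 29.8 CPM) and Notch3 (18.3 to 26.2) had higher means with CM in CD26+ NFs. There Rgs5 was 1.61 and 1.62 CPM, and Abcc9 (3.87 to 1.23) and Kcnj8 (0.308 to 0.0534) were lower. Among the immune genes Csf1r went from 17.5 to 21.7 CPM and S100a8 from 0.124 to 1.26, while Cd68 was 1.34 and 1.32. The part of either list in these changes was not tested. In CD26- NFs the count of 4 was 2 without control replicate 1 or 3 or CM replicate 8.

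Between the cell types, 7 of 9 members differed in control medium, 6 higher in CD26+ NFs and 1, Mmp9, lower. The background was wide, as 50.3% of all genes differed, 25.0% higher and 25.4% lower. In CM 8 of 9 were higher in CD26+ NFs and none was lower by edgeR's test, where 58.6% of all genes differed, 29.3% in each direction. At the limits the study used, an absolute log2 difference over 2 beside the FDR, 3 members differed in control medium (Mmp2, Mmp9 and Mmp28), 0 in CM and 0 with CM in either cell type. For the comparison in CM the paper reports significant changes of MMP9, MMP11 and MMP28 among others. Here Mmp11 and Mmp28 passed the FDR alone and Mmp9 did not. Mmp2 stood at that limit, with a log2 difference of 2.001, and was under it with DESeq2 (1.993), with RLE scaling (1.995) and in a fit of those groups alone (1.999). The comparisons share the control or CM libraries of a cell type, so their results are not independent of each other. Skeletal muscle markers, like the epithelial ones, were lower in CD26+ NFs. They summed to 47.9 to 74.9 CPM in CD26- control and 11.8 to 18.1 CPM in CD26+ control libraries, and to 44.1 to 104 CPM and 5.78 to 19.3 CPM in CM libraries. Endothelial markers summed to 3.97 to 5.14 CPM in CD26- and 2.104 to 2.963 CPM in CD26+ control libraries, and to 3.76 to 8.77 and 1.77 to 3.49 CPM with CM. Adipocyte markers ran the other way, from 0.0854 to 0.290 CPM in CD26- and 3.26 to 8.09 CPM in CD26+ control libraries, and from 0 to 1.15 and 2.54 to 15.8 CPM with CM. Immune markers summed to 24.4 to 26.0 CPM in CD26- and 18.0 to 19.8 CPM in CD26+ control libraries. The part of these markers in the differences was not tested. In control libraries nearly all of the skeletal muscle sum was Acta1, an actin gene (62.99 CPM in CD26- and 15.1 in CD26+ NFs on average). With CM in CD26- NFs the mean of Acta1 was 48.5 CPM, while Myh3 went from 0.590 to 14.1 CPM and Myog from 0.179 to 5.36 CPM, and their part in the CM changes of the members was not tested.

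**Figure D2:**
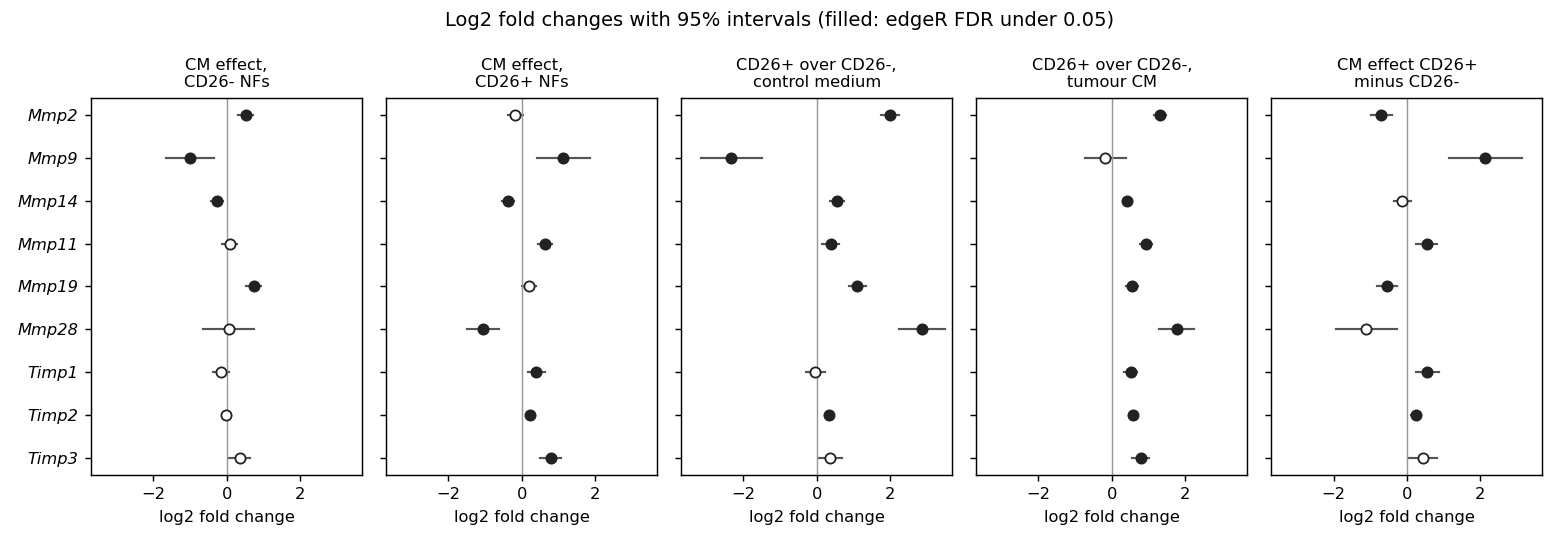
Log2 fold change of 9 members (y axis) in 5 comparisons (panels, x axis in log2 units). Points are edgeR estimates, lines are 95% intervals and filled points have an FDR under 0.05; Mmp9 is to the left of 0 with CM in CD26- NFs and to the right in CD26+ NFs, and all members but Mmp9 are to the right of 0 for CD26+ over CD26- NFs in tumor CM.

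The ratio of summed MMP to summed TIMP reads is given as a description without a test. It uses CPM not divided by gene length, so a long gene such as Timp3 weighs more than a short one such as Timp1. In CD26- control libraries the 6 MMPs summed to 1164 ± 51.4 CPM and the TIMPs to 3781 ± 110 CPM (SD, n = 3), a ratio of 0.308 ± 0.0223. In CD26+ control libraries they summed to 2206 ± 158 and 4311 ± 119 CPM, a ratio of 0.511 ± 0.0224. Those 3 CD26+ libraries, at 0.494 to 0.537, were above all other libraries of the series, which ran from 0.251 to 0.382. With CM the ratio was 0.279 ± 0.0216 in CD26- NFs and 0.313 ± 0.0412 in CD26+ NFs (SD, n = 6), and the cell types overlapped. In CD26+ NFs the log2 ratio was lower with CM by 0.72 on average (mean difference -0.72, no overlap), where the summed TIMPs went from 4311 to 6410 CPM and the summed MMPs from 2206 to 1985 CPM. In CD26- NFs the difference was -0.15 and the ranges overlapped, and it was 0.069 without Timp3 and -0.45 without Mmp2 in the sums. With CPM per kb of coding length it was -0.11. Sums per kb of merged exons were not taken, and the direction of this small difference can depend on that choice.

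The gap between cell types in control medium rested on Mmp2. Its share of the summed MMP reads was 58.6% ± 1.71 in CD26+ and 27.8% ± 0.777 in CD26- control libraries, while that of Mmp9 was 2.58% ± 1.04 and 24.2% ± 0.769. Without Mmp2 in the sum the log2 difference between cell types in control medium went from 0.73 to -0.07, and in CM from 0.16 to -0.31. The difference in CM was 0.10 without replicate 18 and 0.29 without Timp3. Timp3 carried 53.1% ± 3.54 of the summed TIMP reads in CD26+ CM libraries, against 45.7% ± 0.542 in their controls. These shares are not corrected for length. Per kb of merged exons Timp3 averaged 420 and Timp1 2488 CPM per kb in CD26+ CM libraries. The lower ratio with CM in CD26+ NFs remained at -0.50 without Timp3 and -0.69 without Mmp2, and was -0.42 with the mean of log2 CPM.

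Pairs of an enzyme and the inhibitor it is known to bind gave different pictures. These are ratios of CPM too, so their distance from 1 depends on gene length. Mmp2 over Timp2 was 0.615 ± 0.0319 in CD26- control, 0.888 ± 0.0863 in CD26- CM, 1.94 ± 0.132 in CD26+ control and 1.47 ± 0.167 in CD26+ CM libraries. No pair of groups compared overlapped, so with CM the ratio was higher in CD26- NFs and lower in CD26+ NFs. Mmp14 over Timp2 was near 1 in control libraries, at 0.936 ± 0.0752 in CD26- and 1.08 ± 0.0188 in CD26+ NFs, and with CM it was 0.789 ± 0.0576 and 0.709 ± 0.0654. The CD26+ groups did not overlap and the CD26- groups did. Mmp9 over Timp1 was 0.164 ± 0.0131 in CD26- control and 0.0335 ± 0.0118 in CD26+ control libraries, and with CM it was 0.0924 ± 0.0272 and 0.0553 ± 0.0216. Its CM and control libraries were apart in CD26- NFs and overlapped in CD26+ NFs, where replicate 18 had the lowest ratio of the series, 0.0190.

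**Figure D3:**
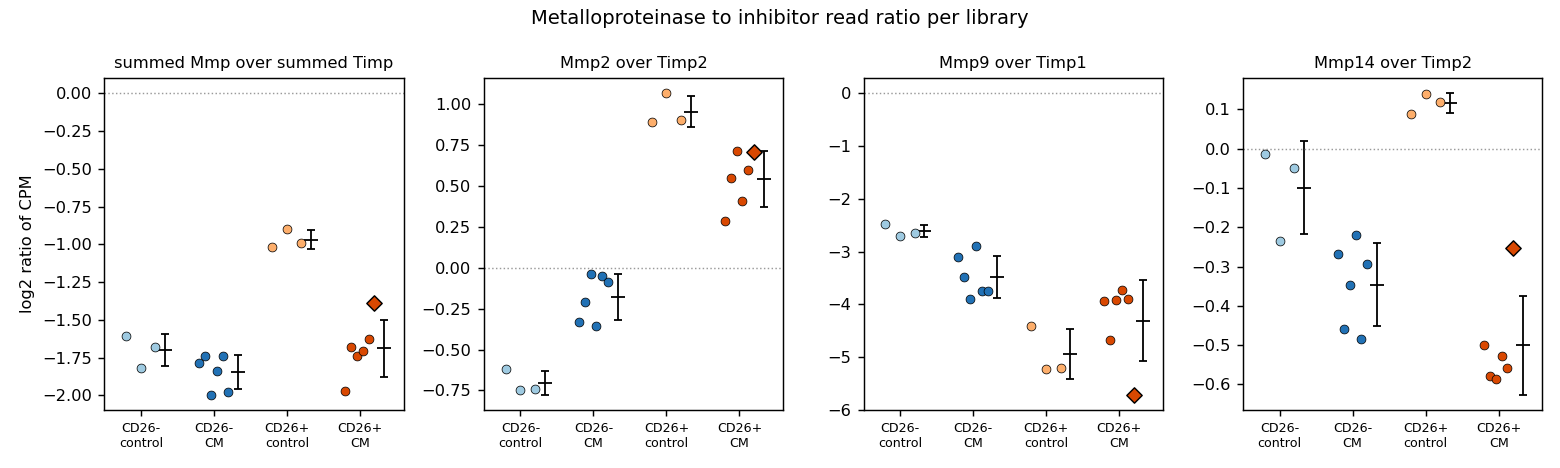
Log2 ratio of MMP to TIMP reads in each library (y axis, log2 of the CPM ratio) by group, for the sums over members and for 3 pairs. Points are libraries, the diamond is replicate 18, black bars are the mean ± SD and the dotted line is a ratio of 1; CD26+ control libraries (n = 3) have the highest summed ratio, and their Mmp2 over Timp2 ratio is above 1.

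Since each tumor line was used once on each cell type, every CM library was set against the control mean of its own cell type. Mmp14 was lower in 12 of 12 CM libraries, and Mmp19 and Timp3 were higher in 12 of 12. Mmp2 was higher with the CM of all 6 lines in CD26- NFs (by 0.36 to 0.67 log2) and with 1 of 6 in CD26+ NFs. Mmp9 was lower with all 6 in CD26- NFs and higher with 5 of 6 in CD26+ NFs, where line 13-MCB-138 was the exception at -0.47. Timp1 and Timp2 were higher with 6 of 6 lines in CD26+ NFs, and with 2 and 3 of 6 in CD26- NFs. Mmp11 was higher and Mmp28 lower with all 6 lines in CD26+ NFs. For 8 of the 9 tested members the CD26+ library exceeded the CD26- library of the same line in 6 of 6 lines, and for Mmp9 in 2 of 6.

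Replicate 18, the CD26+ culture with CM of line 13-MCB-138, was the CM library nearest to its controls for 5 of the 7 members that changed in CD26+ NFs (Mmp9, Mmp14, Mmp28, Timp2 and Timp3). The CD26- culture with the same CM, replicate 9, had the highest Timp3 of its group, 2290 CPM, whereas replicate 18 had the lowest of its own, 2514 CPM. In CD26- NFs, replicate 7 (line 13-MCB-44) was nearest for 3 of the 4 members that changed (Mmp9, Mmp14 and Mmp19). Mmp2 ranked the lines alike in both cell types. Lines 18-MCB-12 and 13-MCB-138 gave the highest levels, at 515 and 508 CPM in CD26- and 1332 and 1213 CPM in CD26+ NFs, and 13-MCB-17 gave the lowest, at 414 and 956.5 CPM. Pearson's r of the log2 levels between cell types over the 6 lines was 0.88 for Mmp2 and 0.72 for Mmp14, from -0.49 (Mmp11) to 0.47 (Timp1) for the others, given as a description.

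A test of the 6 lines over the 12 CM libraries, with cell type as a covariate, called 0 of 9 members by edgeR, with 3 at an unadjusted p under 0.05 (Mmp2, Mmp14 and Timp1) and 1 called by DESeq2 (Mmp2). Of all genes 6.28% were called. Mmp2 stood at the threshold (edgeR FDR = 0.0509), and passed with RLE scaling (0.0492), with upper-quartile scaling (0.0449) and in DESeq2 (0.00107). Without the filter on low counts the count was 4, with an edgeR FDR of 0.00152 for Mmp2, 0.00537 for Mmp9, 0.00133 for Timp1 and 0.0300 for Timp3. Without replicate 9 the count was 4 (Mmp2, Mmp9, Timp1 and Timp3) and without replicate 18 it was 3 (Mmp2, Timp1 and Timp3). The CM of a line is represented by 1 culture of each cell type, so the test rests on the cell types as replicates.

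**Figure D4:**
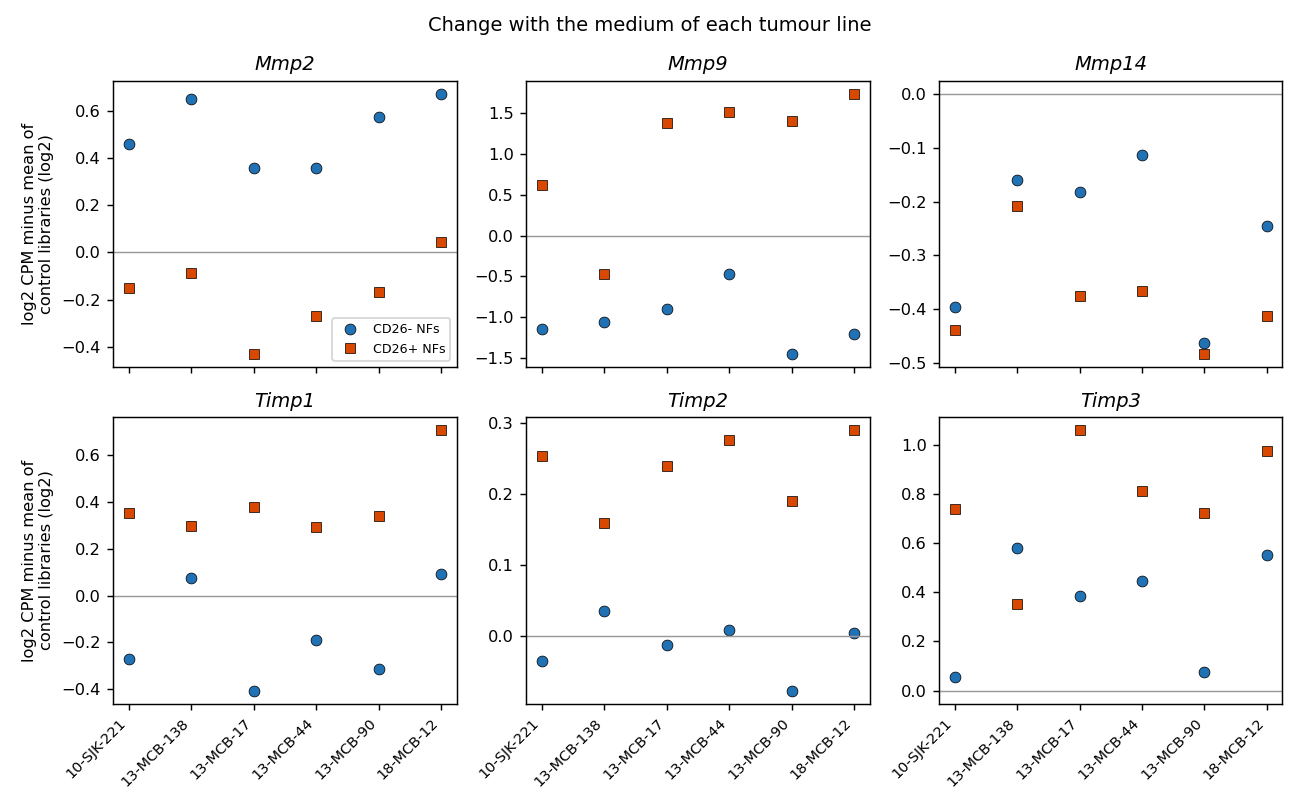
Log2 CPM of each CM library minus the mean of the 3 control libraries of its cell type (y axis, log2 units) for the 6 tumor lines (x axis), with CD26- NFs as circles and CD26+ NFs as squares. Each point is 1 library; Mmp14 is below 0 throughout, and Mmp9 is below 0 for all lines in CD26- NFs and above 0 for 5 of 6 in CD26+ NFs.

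Other genes that act on MMPs were described from a list of 17 regulators, of which 15 were tested. It holds proconvertases that cut proenzymes, inhibitors outside the TIMP family, and receptors and matrix proteins that bind MMPs. In CD26- NFs 1 went up with CM and 3 went down, and in CD26+ NFs 4 went up and 3 down. These are 4 and 7 of 15, beside the 15.2% and 28.6% of all genes given above. The list's median log2 fold change was 0.09 in both cell types, and that of all genes tested was 0.01 and -0.00396. Lcn2, which encodes a lipocalin, rose from 11.5 to 98.4 CPM in CD26- NFs (3.11 ± 0.79, edgeR FDR = 0.0140) and from 3.64 to 37.0 CPM in CD26+ NFs (3.36 ± 0.90, edgeR FDR = 0.00981). Lcn2 therefore rose in both cell types, where Mmp9 fell in one and rose in the other. Tfpi2, a serine protease inhibitor of the matrix, fell in CD26- NFs (log2 change -0.43 ± 0.12, edgeR FDR = 0.0209) and in CD26+ NFs (-0.35 ± 0.12, edgeR FDR = 0.0430). Pcsk5, a proprotein convertase, fell in CD26+ NFs from 180.2 to 63.5 CPM (log2 change -1.51 ± 0.40, edgeR FDR = 0.00973). Thbs1, the matrix protein thrombospondin-1, rose in CD26+ NFs from 4427 to 11292 CPM (1.35 ± 0.15, edgeR FDR = 4.74e-06).

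In control medium 5 regulators were higher and 4 lower in CD26+ NFs, and in CM 7 were higher and 4 lower, where 50.3% and 58.6% of all genes differed. The lower ones had log2 differences from -1.23 (Itgb3) to -0.71 (Thbs1) in control medium and from -1.41 (Lcn2) to -0.44 (Itgb3) in CM, all at an edgeR FDR under 0.05. Pcsk5 was higher by 1.99 ± 0.51 (edgeR FDR = 0.00311) in control medium and by 1.55 ± 0.37 (edgeR FDR = 0.00160) in CM. The CM effect differed for 2 of 15, both positive, where it differed for 7.53% of all genes. They were Thbs1 (1.12 ± 0.20, edgeR FDR = 0.00427) and Itgav, an integrin subunit (0.57 ± 0.11, edgeR FDR = 0.00602). Of 7 other MMPs outside the chromosome 9 cluster, 5 were tested. With CM 1 of the 5 rose in CD26- NFs (background 15.2%), and in CD26+ NFs 1 rose and 1 fell (28.6%). Set against CD26- NFs, CD26+ NFs had more of 1 and less of 1 in control medium (50.3%), and more of 1 and less of 2 in CM (58.6%). Mmp16, another membrane-type MMP, rose with CM in CD26- NFs from 4.46 to 8.36 CPM (0.91 ± 0.21, edgeR FDR = 0.00705) and in CD26+ NFs from 4.62 to 9.62 CPM (1.06 ± 0.20, edgeR FDR = 0.000886). Mmp15, named here after its values were seen, fell with CM in CD26+ NFs (log2 change -0.91 ± 0.32, edgeR FDR = 0.0418) and was lower in CD26+ than in CD26- NFs in CM (-0.97 ± 0.27, edgeR FDR = 0.00506). Mmp23 was higher in CD26+ NFs by 1.66 ± 0.23 in control medium (edgeR FDR = 1.27e-05) and by 1.73 ± 0.16 in CM (edgeR FDR = 9.94e-08). Mmp24 was lower in CD26+ NFs, with log2 differences of -2.45 ± 0.31 (edgeR FDR = 4.21e-06) and -2.63 ± 0.23 (edgeR FDR = 3.47e-08).

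Deviations from the group means of log2 CPM, taken over 18 libraries, describe which members moved together within groups. Among 36 pairs of tested members Timp2 and Timp3 had the highest Pearson r, 0.75, which was 0.65 without replicate 18. Mmp2 and Timp1 had 0.61 and 0.67, and Timp1 and Timp3 had 0.61 and 0.64. Mmp9 and Timp3 had 0.63 with replicate 18 and 0.32 without it. Without replicate 18 the highest r was that of Mmp14 and Timp3, 0.68, which was 0.20 with it, and that of Mmp14 and Timp2 went from 0.26 to 0.62. Mmp14 and Mmp19 had the lowest r, -0.54. Among 10612 genes that averaged 5 CPM or more, those most like Mmp2 were Msi2 (0.91) and Armcx4 (0.83), and those most like Mmp9 were Tnfrsf11b (0.88) and Tnfaip3 (0.88). Fancc (0.87) and Man1a (0.85) were most like Mmp14, Dsel (0.90) and Slc30a7 (0.88) most like Timp1, and Galnt18 (0.94) and Cxcl12 (0.94) most like Timp3. These genes were picked as the highest of 10612, so their high r comes in part from the choice. Spearman's rank correlation for them ran from 0.71 (Tnfaip3) to 0.91 (Msi2), and their r without replicate 18 was not computed. The libraries share tumor lines between cell types, so the 18 points are not independent.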

How the data were processed

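The deposited table holds raw counts of reads per Ensembl gene, made by the authors without normalization. The submitters' processing notes name HISAT2 2.1.0, HTSeq and GRCm38. The libraries were stranded and sequenced single-end, and the strand setting of the counting and the annotation release are not given in the sources used here. The table has 55486 genes in 18 libraries, beside 1 row without a gene that holds 0 counts.

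Genes were kept with filterByExpr by group (14273 genes, at least 99.9% of the counts of a library). Counts were scaled by TMM and tested with edgeR 4.0.16 (glmQLFit and glmQLFTest, R 4.3.3) in a single model of 4 groups, with Benjamini-Hochberg adjustment over all genes tested. The lines were tested in the 12 CM libraries with 5 line terms and cell type. The study used DESeq2, run here as an alternative (1.42.0). Intervals are 95%. The code was tested on simulated data. No library was a copy of another (the smallest chi-square between replicates was 3.03 times its degrees of freedom). Residuals of libraries given CM of the same line correlated at r from 0.247 to 0.406, and an alternative had the line as a block. All 10 members were named. From the regulators and other MMPs taken as 1 pool, the up to 3 called genes per comparison with the largest change and at least 5 CPM on average in a group were named, and for 5 members the 2 most similar genes. Members and lists were chosen with earlier results of these data known. Figures were drawn with matplotlib 3.10.9. Some alleles of the donor and tumor mice are not reported here.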

Additional observations from a re-analysis of the deposited data

Results flagged for a closer look

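In 26 sets of 6 CM libraries (levels of 9 members and 4 ratios in each cell type), 3 had a library far from the others, where chance gives about 1 in 20. Timp1 in replicate 15 (line 18-MCB-12, CD26+) was 11.41 on the log2 CPM scale and the next library 11.08, a gap of 0.796 of the whole range. Mmp28 in replicate 18 (line 13-MCB-138, CD26+) was 2.29 and the next 1.73, a gap of 0.683 of the range. The log2 ratio of Mmp14 over Timp2 in replicate 18 was -0.25 and the next -0.50, a gap of 0.743 of the range.

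The CM effect in CD26+ NFs minus that in CD26- NFs passed the edgeR test for 6 members, in log2 units -0.69 for Mmp2, 2.15 for Mmp9, 0.55 for Mmp11, -0.55 for Mmp19, 0.56 for Timp1 and 0.25 for Timp2.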

How the results depend on the processing

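Of 32 called results among 54 tests of the members, 24 kept their call in every alternative run (RLE and upper-quartile scaling, no low-count filter, DESeq2, the compared groups alone, the line as a block, and each library left out), and of 1188 values 1118 kept direction and call, 36 lost the call, 27 gained it and 7 changed sign. Leaving out 1 library gave 2 to 5 members called with CM in CD26- NFs, 1 to 8 for the difference between CM effects and 0 to 4 for the lines. With the study's limits the counts were 0 and 0 with CM in CD26- and CD26+ NFs, 3 and 0 between cell types in control medium and CM, and 1 for the difference. That 1 was Mmp9 at 2.15, which met neither limit without control replicate 11 (1.996, edgeR FDR = 0.0569). For the lines the count was 1 with RLE scaling, upper-quartile scaling or DESeq2 and 4 without the filter. With the line as a replicate block the count was 8 between cell types in CM and 7 for the difference between effects. Without the filter the count between cell types in CM was 9. Mmp9 did not pass there (edgeR FDR = 0.677), so the added member was Timp4, which rests on 0 counts in the CD26- CM and 7 in the CD26+ CM group. The cause of the changes in calls was not tested. No call changed sign. Signs turned for Mmp28 and Timp2 with CM in CD26- NFs (leaving out 1 library, -0.16 to 0.47 and -0.028 to 0.00081) and for Mmp9 between cell types in CM (-0.32 to 0.0011).

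The log2 MMP to TIMP difference was 0.069 without Timp3 and -0.45 without Mmp2 for CM in CD26- NFs, -0.42 with the mean of log2 CPM and -0.50 without Timp3 for CM in CD26+ NFs, 0.51, 0.86 and -0.069 with the mean of log2 CPM, without Timp3 and without Mmp2 between cell types in control medium, and -0.31 without Mmp2 in CM. Mmp28 and Timp4 are limited by depth.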
